A study of Homo sapiens with 12 samples.

Results

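The 10 genes described here encode enzymes that remove superoxide and peroxides: the superoxide dismutases SOD1 and SOD2, catalase (CAT), the glutathione peroxidases GPX1, GPX2 and GPX4, and the peroxiredoxins PRDX1, PRDX3, PRDX5 and PRDX6. They were taken by symbol from a count table of 26334 genes, and all 10 were among the 15352 genes that passed the filter on low counts. They were measured in 12 RNA sequencing libraries of A549, a human lung adenocarcinoma line, with 3 libraries for each of 4 conditions. All cells had been infected with a lentivirus and selected with puromycin for 4 days. Control cells carried a control shRNA (shControl) and RNF113A-depleted cells an shRNA against RNF113A (shRNF113A), a RING-domain subunit of the spliceosome, and each was either untreated or treated with Cisplatin, a platinum drug that crosslinks DNA. According to the sample labels the Cisplatin dose was 25 µg/ml and the time 20 h, but the methods of the study give micromolar doses for its other Cisplatin experiments, so the unit of the dose is in doubt. The labels describe selected populations rather than single clones. The methods of the study call the 3 libraries of a condition biological replicates, but the labels do not say whether they came from separate cultures. The p-values therefore measure only the spread between these libraries.

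Superoxide leaks from the respiratory chain and is made by NADPH oxidases. Superoxide dismutases turn it into hydrogen peroxide, SOD1 mainly in the cytosol with copper and zinc, and SOD2 in the mitochondrial matrix with manganese. Hydrogen peroxide is then reduced by catalase in peroxisomes, by glutathione peroxidases at the expense of glutathione, and by peroxiredoxins, which are recharged mostly by thioredoxin. GPX1 acts in the cytosol and mitochondria, GPX2 is typical of epithelia, and GPX4 reduces lipid peroxides in membranes and thereby guards against ferroptosis. PRDX1 is cytosolic, PRDX3 mitochondrial, PRDX5 found in several compartments, and PRDX6 uses glutathione and also has phospholipase activity.

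GPX1, GPX2 and GPX4 are selenoproteins, in which a UGA codon inside the reading frame is read as selenocysteine, the catalytic residue. The 3 codons are shown because GPX1 changed far more with Cisplatin than GPX2 and GPX4 did in the results below, and because the genes that serve this decoding are described with them. The runs are from the reference genome GRCh37, in coding direction, with the selenocysteine codon in capitals. GPX1 lies at chr3:49395553-49395582 on the minus strand, GPX2 at chr14:65409313-65409342 on the minus strand and GPX4 at chr19:1105387-1105416 on the plus strand.
GPX1: aatgtggcgtccctcTGAggcaccacggtc
GPX2: aatgtggcttcgctcTGAggcacaaccacc
GPX4: aacgtggcctcccagTGAggcaagaccgaa

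The targeted gene was examined first. RNF113A had 20.3, 19.5 and 19.8 CPM (read pairs of the gene scaled to a common library total by edgeR's TMM method) in untreated control cells and 15.3, 15.8 and 16.8 in untreated depleted cells, with no overlap. After Cisplatin it had 31.5, 28.9 and 27.7 CPM in control cells and 25.8, 24.3 and 29.9 in depleted cells, where the ranges overlapped. The mRNA was thus lower by 0.31 ± 0.09 (SE) on the log2 scale in untreated depleted cells (adjusted p = 0.0247), a call that was lost without control replicate 1 or 3 or depleted replicate 1 or 2 (adjusted p between 0.0563 and 0.094). After Cisplatin the difference was −0.14 ± 0.09 (adjusted p = 0.233), and Cisplatin itself raised RNF113A by 0.65 ± 0.07 over both backgrounds (adjusted p = 2.36e-06). Fitted over both drug levels, RNF113A was lower with depletion in all 12 fits without 1 library (−0.28 to −0.20, adjusted p up to 0.0468). All adjusted p-values of expression come from edgeR's quasi-likelihood test with Benjamini-Hochberg adjustment over all 15352 genes, and "passed" means an adjusted p under 0.05.

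The libraries held 33859097 to 56071514 read pairs, and the 3 lowest totals were those of the depleted and Cisplatin-treated cells. Each of the 10 genes had between 1334 and 60030 read pairs in every library. The epithelial keratin KRT8 stood at 1940 to 7450 CPM and all 4 genes of a list typical of A549 were above 1 CPM in each condition, whereas KRT19 was at 0.674 to 5.32 CPM. Summed endothelial markers reached at most 0.788 CPM and summed fibroblast markers 6.08 to 35.9 CPM, mostly COL1A1. Of the leukocyte markers PTPRC and CD3E had at most 5 read pairs in a library, whereas CD68, which epithelial lines also express, was at 27.9 to 74.0 CPM. The second control libraries, with and without Cisplatin, stood apart from the others for several of the 10 genes, and calls that change when both are left out are given below. This omission, and the block by replicate number within control cells, were chosen after the data were seen. Their p-values are therefore descriptive and not independent support for a difference.

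PRDX1 was the most abundant of the 10 mRNAs in every condition. Divided by the length of the RefSeq exons, its level in untreated control cells was 1167 CPM per kb, and its libraries did not overlap those of any other member. PRDX5 (298), PRDX3 (295), GPX2 (284) and SOD1 (264 CPM per kb) followed, and neighbours in this order overlapped between libraries. PRDX6 (188) and GPX4 (95.4 CPM per kb) stood apart from their neighbours. GPX1 (56.7), CAT (39.6) and SOD2 (33.8 CPM per kb) were lowest, each overlapping the next. The RefSeq exons of SOD2 total 1775 bases and cannot hold in full the 3175 bases of its splice event described below. The rank of SOD2 therefore holds for the RefSeq exons alone. In Cisplatin-treated control cells GPX1 had moved from the eighth to the third place, at 314 CPM per kb, and in Cisplatin-treated depleted cells to the second place, at 341 CPM per kb, overlapping its lower neighbour in both. CAT was the lowest of the 10 in all conditions except untreated control cells, where SOD2 was.

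**Figure D1:**
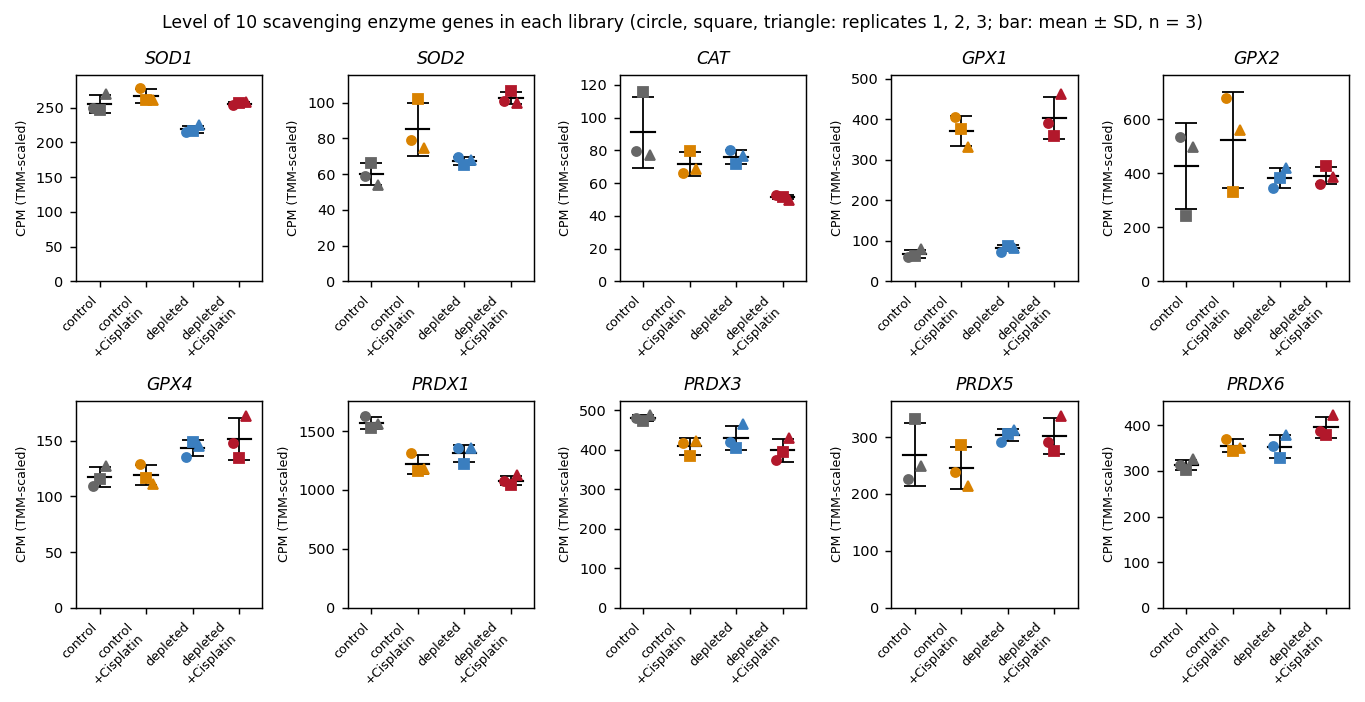
TMM-scaled CPM (linear axes from 0) of the 10 genes in the 4 conditions. Each symbol is 1 library, with circle, square and triangle for replicates 1, 2 and 3, and the bars give the mean ± SD (n = 3). GPX1 lies between 331 and 461 CPM in the 6 Cisplatin-treated libraries and between 59.3 and 88.2 CPM in the 6 untreated ones.

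The first question was how Cisplatin altered these mRNAs. Over both backgrounds 7 of the 10 genes passed: GPX1, SOD2, SOD1 and PRDX6 rose, and CAT, PRDX1 and PRDX3 fell. The share among all genes tested was 66.8%, so the number of members that passed is close to the background. GPX1 was the single member that changed at least 2-fold, as 21.5% of all genes did. The median log2 fold change of the 10 genes was 0.10 and that of all genes 0.03. In these bulk samples fewer cells of a state and less RNA per cell cannot be told apart.

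GPX1 showed the widest range of the 10 genes. Its CPM was 59.3, 62.7 and 79.2 in untreated control cells and 406, 377 and 331 after Cisplatin. In depleted cells it was 73.1, 88.2 and 83.1 without and 391, 358 and 461 with the drug. Treated and untreated libraries were far apart in both backgrounds. The log2 fold change was 2.39 ± 0.10 over both backgrounds (5.23-fold, adjusted p = 2.04e-10), 2.47 ± 0.14 in control cells (adjusted p = 2.85e-08) and 2.31 ± 0.14 in depleted cells (adjusted p = 4.6e-08). The difference between the backgrounds was −0.16 ± 0.18 on the log2 scale and did not pass (adjusted p = 0.67). With any 1 library left out the change over both backgrounds lay between 2.33 and 2.44.

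GPX1 lies on the minus strand at chr3:49394609-49396033 (GRCh37), 544 bases downstream of the end of RHOA, which is transcribed in the same direction. RHOA, a small GTPase of the cytoskeleton, had a mean of 582 CPM in untreated and 427 in Cisplatin-treated control cells, and of 513 and 351 in depleted cells. RHOA fell by 0.50 ± 0.06 on the log2 scale with Cisplatin (adjusted p = 6.47e-06), the opposite direction to GPX1. Reads that matched several places, such as processed copies of GPX1 or PRDX1, are not counted by the authors' counter, and their number was not examined.

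SOD2 was the second member to rise in both backgrounds. It was at 59.3, 66.5 and 54.2 CPM in untreated control cells against 79.1, 102 and 74.4 after Cisplatin, and at 69.6, 65.1 and 67.8 against 101, 107 and 100.1 in depleted cells. Treated libraries lay above untreated ones without overlap in each background. SOD2 rose by 0.51 ± 0.11 on the log2 scale in control cells (adjusted p = 0.00206) and by 0.61 ± 0.11 in depleted cells (adjusted p = 0.000514). Its RefSeq exons cannot cover in full the 2 ends of its mRNA described below. The part of a change of ends in these rises, and in that with depletion, was not tested.

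SOD1, its cytosolic counterpart, moved much less. It was at 249, 246 and 269 CPM in untreated control cells and at 277, 261 and 261 after Cisplatin, which overlapped, and at 215, 216 and 224 against 253, 256 and 258 CPM in depleted cells, which did not. SOD1 rose by 0.23 ± 0.06 on the log2 scale in depleted cells (adjusted p = 0.00719), while in control cells the difference was 0.06 (adjusted p = 0.399). The rise over both backgrounds, 0.15 ± 0.05 (adjusted p = 0.0215), failed to pass in 5 of the 12 fits without 1 library, namely those without control replicate 1 with Cisplatin, depleted replicate 1 or 2, or depleted replicate 1 or 2 with Cisplatin (adjusted p between 0.0514 and 0.0606).

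Catalase moved in the opposite direction to the glutathione peroxidase GPX1. CAT was at 79.9, 116 and 77.0 CPM in untreated control cells and at 66.2, 79.9 and 68.7 after Cisplatin. In depleted cells it was at 80.1, 71.6 and 76.7 CPM without and at 52.5, 51.8 and 49.9 with Cisplatin. The depleted and treated libraries lay below all 9 others, whereas treated and untreated control libraries overlapped. CAT fell by 0.57 ± 0.14 on the log2 scale in depleted cells (adjusted p = 0.00319) and by 0.35 ± 0.13 in control cells (adjusted p = 0.0457). The value in control cells was −0.13 (adjusted p = 0.206) without untreated control replicate 2, which holds the 116 CPM, and it passed in 3 of the 12 fits without 1 library. The treated library was below the untreated one for each of the 3 replicate numbers. With the number as a block in control cells the value was −0.33 (adjusted p = 0.00148), and without both control libraries numbered 2 it was −0.22 (adjusted p = 0.0185). Fitted over both backgrounds, the fall passed in all 12 of these fits (−0.52 to −0.38).

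Of the peroxiredoxins, the cytosolic PRDX1 fell in both backgrounds. Its level was 1628, 1529 and 1560 CPM in untreated control cells and 1313, 1157 and 1180 after Cisplatin, against 1352, 1224 and 1355 and then 1072, 1042 and 1125 in depleted cells. No treated library reached an untreated one of the same background. PRDX1 fell by 0.37 ± 0.08 on the log2 scale in control cells (adjusted p = 0.00127) and by 0.28 ± 0.08 in depleted cells (adjusted p = 0.00683).

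The mitochondrial PRDX3 ranged from 473 to 489 CPM in untreated control cells and from 385 to 424 after Cisplatin, without overlap, but from 405 to 465 against 373 to 429 CPM in depleted cells, with overlap. It fell by 0.17 ± 0.06 on the log2 scale over both backgrounds (adjusted p = 0.0176) and by 0.23 ± 0.08 in control cells (adjusted p = 0.0213), a call lost without untreated replicate 3 or treated replicate 2 of these cells (adjusted p = 0.0578 and 0.0754). With library size in place of TMM scaling, which shifts the median of all genes to 0.125, the value over both backgrounds was −0.08 (adjusted p = 0.216).

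PRDX6 rose by a similar amount. It was at 303 to 325 CPM in untreated and 344 to 371 in treated control cells, and at 329 to 378 and 379 to 422 CPM in depleted cells, without overlap within a background. PRDX6 rose by 0.17 ± 0.05 on the log2 scale over both backgrounds (adjusted p = 0.0116), although neither background alone passed (0.18 with adjusted p = 0.0564 in control cells, and 0.16 with adjusted p = 0.0746 in depleted cells).

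GPX2, GPX4 and PRDX5 did not pass for Cisplatin. GPX2 was the least even of the 10 genes between libraries, with 536, 244 and 499 CPM in untreated and 678, 331 and 562 CPM in treated control cells. The second library was lowest in both sets, and each treated library was above the untreated one of its number. The log2 difference was 0.30 ± 0.27 (adjusted p = 0.381), and 0.32 with the replicate number as a block in control cells (adjusted p = 0.00347). PRDX6 passed with this block as well (adjusted p = 0.0351), so 7 members passed in control cells instead of 5, while the genes passed rose from 8450 to 9981 of 15352. Without both control libraries numbered 2, GPX2 passed in control cells (0.26, adjusted p = 0.0416) and PRDX6 in depleted cells (0.16, adjusted p = 0.0386). GPX4 was at 109.5 to 127 CPM without and 112 to 129.5 CPM with Cisplatin in control cells, with a log2 difference over both backgrounds of 0.05 (adjusted p = 0.539). For PRDX5 this difference was −0.07 (adjusted p = 0.547).

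By background, Cisplatin left 5 of the 10 genes past the threshold in control cells, 2 higher and 3 lower, against 55.0% of all genes. In depleted cells 5 passed as well, 3 higher and 2 lower, against 60.2% of all genes. With library size in place of TMM scaling the 5 in control cells were 4 higher and 1 lower, since SOD1 (0.16, adjusted p = 0.0301) and PRDX6 (0.28, adjusted p = 0.00287) passed and CAT (−0.25, adjusted p = 0.189) and PRDX3 (−0.14, adjusted p = 0.117) did not. The CPM ranges of treated and untreated libraries did not overlap for 5 members in control cells, where 56.1% of all genes did not overlap, and for 6 members in depleted cells, where the share was 74.2%. Both backgrounds share their untreated and treated samples with the comparisons of depletion below, and the values of the comparisons are therefore given side by side without a correlation.

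The second question was how RNF113A depletion altered the 10 genes. Over both drug levels GPX4, SOD2 and PRDX6 rose and CAT, PRDX1 and SOD1 fell, so 6 of 10 passed against 47.5% of all genes, none of them by 2-fold, a change that 11.0% of all genes reached. GPX4, CAT and PRDX1 passed in all 12 fits without 1 library, while the other members depended on single libraries. The median log2 difference of the 10 genes was 0.03 and that of all genes −0.0018.

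GPX4, the enzyme that detoxifies lipid peroxides, had the largest rise. It was at 109.5, 116 and 127 CPM in untreated control cells and 136, 149 and 146 in untreated depleted cells, and at 129.5, 117 and 112 CPM in treated control cells and 148, 135 and 172 in treated depleted cells. All 6 depleted libraries lay above all 6 control libraries. GPX4 rose by 0.32 ± 0.07 on the log2 scale over both drug levels (1.25-fold, adjusted p = 0.00221), by 0.29 ± 0.10 in untreated cells (adjusted p = 0.0451) and by 0.35 ± 0.10 in treated cells (adjusted p = 0.0133). Within single drug levels the call was fragile, since it was kept in 4 of 12 fits without 1 library in untreated cells and in 8 of 12 in treated cells (adjusted p up to 0.136 and 0.103).

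CAT fell by 0.37 ± 0.10 on the log2 scale with depletion over both drug levels (adjusted p = 0.00805). In treated cells it fell by 0.48 ± 0.14 (adjusted p = 0.0139), and the 3 depleted libraries, at 49.9 to 52.5 CPM, lay below the 3 control libraries, at 66.2 to 79.9 CPM. In untreated cells the difference was −0.26 (adjusted p = 0.179) and the ranges overlapped. PRDX1 fell by 0.22 ± 0.06 over both drug levels (adjusted p = 0.00634), and by 0.26 ± 0.08 in untreated cells (adjusted p = 0.0227), a call lost without untreated control replicate 1 or 3 or untreated depleted replicate 2 (adjusted p between 0.0506 and 0.1). In treated cells its ranges did not overlap either, with a difference of −0.17 that did not pass (adjusted p = 0.0847).

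The dismutases differed in sign upon depletion. SOD1 fell by 0.14 ± 0.05 on the log2 scale over both drug levels (adjusted p = 0.037) and by 0.22 ± 0.06 in untreated cells (adjusted p = 0.0202), where the depleted libraries at 215 to 224 CPM lay below the control libraries at 246 to 269 CPM. The latter call was lost without untreated control replicate 3 or untreated depleted replicate 1 or 2 (adjusted p between 0.0685 and 0.0802). SOD2 rose by 0.22 ± 0.08 over both drug levels (adjusted p = 0.0349), with a difference of 0.17 (adjusted p = 0.283) in untreated and 0.27 (adjusted p = 0.0698) in treated cells, where libraries overlapped. The SOD2 value passed in 3 of 12 fits without 1 library (0.14 to 0.26, adjusted p up to 0.15), and the SOD1 value over both drug levels in 7 of 12 (−0.18 to −0.11, adjusted p up to 0.0861). PRDX6 rose by 0.16 ± 0.05 over both drug levels (adjusted p = 0.0217), again in 7 of 12 fits (0.13 to 0.19, adjusted p up to 0.0911).

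GPX2, PRDX5, PRDX3 and GPX1 did not pass for depletion over both drug levels, and the first 2 turned on the second control libraries. PRDX5 was at 227, 331 and 249.7 CPM in untreated and 239, 286 and 214 CPM in treated control cells, highest in the second library of each, against 292, 305 and 314 CPM in untreated and 292, 276 and 337 CPM in treated depleted cells. Its log2 difference was 0.23 ± 0.10 (adjusted p = 0.0641), and 0.38 (adjusted p = 0.000279) without both control libraries numbered 2. GPX2 in depleted cells was at 347 to 419.6 CPM untreated and 362 to 426 CPM treated, within the range of the control libraries. Its difference was −0.29 ± 0.19 (adjusted p = 0.231), and −0.55 (adjusted p = 6.74e-05) without those 2 libraries. The 2 libraries were left out after the data were seen, so the smaller p-values of PRDX5 and GPX2 follow in part from that choice. PRDX3 differed by −0.10 (adjusted p = 0.173) and GPX1 by 0.20 (adjusted p = 0.0887).

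Within untreated cells 3 of the 10 genes passed for depletion, SOD1 and PRDX1 lower and GPX4 higher, against 27.4% of all genes. Within treated cells GPX4 was higher and CAT lower, 2 of 10 against 42.9% of all genes. CPM ranges did not overlap for 5 members in untreated cells and for 5 in treated cells, against 43.3% and 57.7% of all genes. GPX4 and PRDX6 lay above the control range and SOD1 and PRDX1 below it at both drug levels. The omission of both control libraries numbered 2 was chosen after the data were seen. With it, 6 members passed in untreated cells, where 6469 of 15459 genes did, and 6 in treated cells, where 8597 did. Of the members that passed only then, SOD2 differed by 0.25 (adjusted p = 0.00873) in untreated and 0.42 (adjusted p = 0.000111) in treated cells. PRDX5 differed by 0.35 (adjusted p = 0.00388) and 0.41 (adjusted p = 0.000752), against 0.17 (adjusted p = 0.389) and 0.29 (adjusted p = 0.107) with all libraries. GPX2 differed by −0.43 (adjusted p = 0.00173) and −0.67 (adjusted p = 2.91e-05), against −0.15 (adjusted p = 0.713) and −0.42 (adjusted p = 0.235). PRDX1 passed in treated cells as well (−0.21, adjusted p = 0.0248).

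No member passed in the test of whether the Cisplatin effect differed between depleted and control cells, against 4.25% of all genes. The estimates for the 10 genes lay between −0.27 (GPX2) and 0.16 (SOD1) on the log2 scale. For CAT the estimate was −0.22 ± 0.19 (adjusted p = 0.553), and −0.44 (adjusted p = 0.0371) without untreated control replicate 2. The intervals do not show that the effects were equal.

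**Figure D2:**
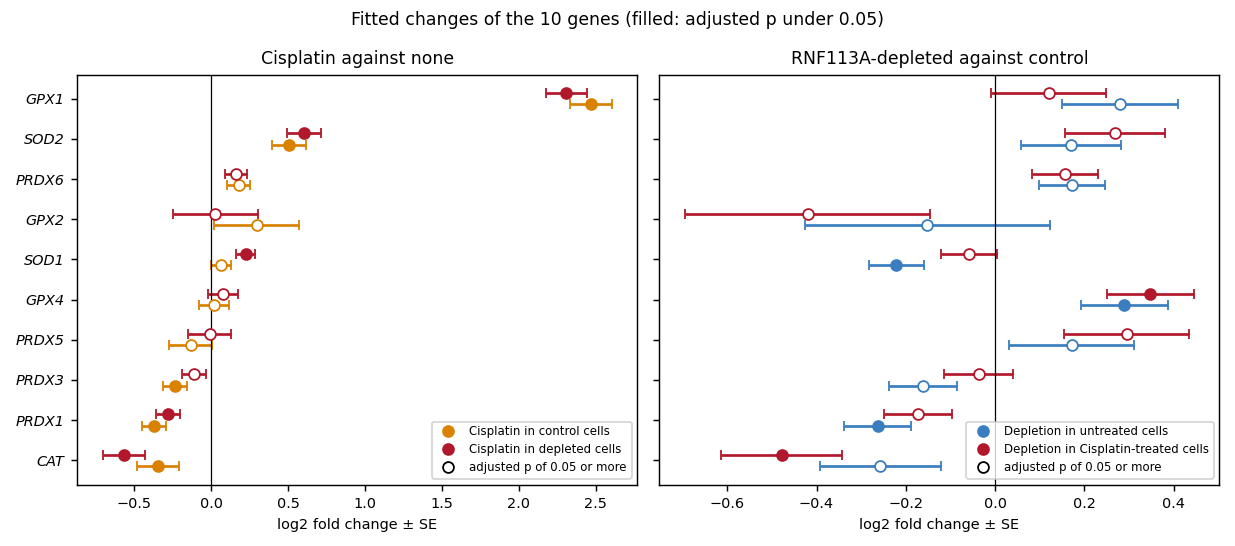
Fitted log2 fold changes ± SE of the 10 genes for Cisplatin against none (left, in control and depleted cells) and RNF113A-depleted against control cells (right, untreated and Cisplatin-treated); filled points have an adjusted p under 0.05. GPX1 stands at 2.47 and 2.31 on the left, every other member between −0.57 and 0.61, and all members lie between −0.48 and 0.35 on the right.

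The other genes of the pathway were taken from 5 lists. Of 8 further members of the same enzyme families, GPX3, GPX8 and PRDX4 passed the filter. GPX3, the secreted plasma glutathione peroxidase, rose with Cisplatin by 1.27 ± 0.12 on the log2 scale (adjusted p = 6.39e-07), with means of 8.24 and 16.5 CPM in control cells and 9.95 and 28.8 CPM in depleted cells. GPX8, an enzyme of the endoplasmic reticulum, fell by 1.01 ± 0.07 (adjusted p = 4.01e-08), from 93.8 to 44.6 CPM in control cells and from 73.8 to 38.0 CPM in depleted cells. PRDX4 did not pass. PRDX2, commonly an abundant peroxiredoxin, had 0 to 8 read pairs per library in these tables, where its span overlaps that of HOOK2 on the same strand, so its level is not known from these counts.

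The next list holds 22 genes for the supply and recycling of thioredoxin and glutathione, together with SESN1, SESN2, SESN3 and CCS, which act beside these systems. Of the 22 genes, 5 rose with Cisplatin, 11 fell and 6 did not pass, where 66.8% of all genes passed. The median log2 fold change was −0.22. SESN1 and SESN2, sestrins that respond to p53 and restrain growth signalling, had the largest rises, 2.87 ± 0.09 (adjusted p = 4.36e-11) and 2.75 ± 0.12 (adjusted p = 5.82e-10). In control cells SESN1 went from a mean of 13.2 to 109.5 CPM and SESN2 from 13.4 to 91.8 CPM. PGD, which makes NADPH in the pentose phosphate pathway, had the largest fall, −1.21 ± 0.07 (adjusted p = 7.42e-09), from 1759 to 843 CPM in control cells and from 1479 to 576 CPM in depleted cells. With depletion 1 gene of this list rose, 7 fell and 14 did not pass, with a median of −0.15, where 47.5% of all genes passed.

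Of 20 genes for enzymes that make superoxide or hydrogen peroxide, or their partners, 9 passed the filter. With Cisplatin 5 rose, 1 fell and 3 did not pass (median 0.62), where 66.8% of all genes passed. With depletion 2 rose and 7 did not pass (median 0.34), where 47.5% of all genes passed. XDH, xanthine dehydrogenase, rose with both, by 1.70 ± 0.15 with Cisplatin (adjusted p = 3.88e-07) and by 1.76 ± 0.15 with depletion (adjusted p = 2.08e-06). Its means were 1.65 CPM in untreated control, 5.76 in treated control, 5.99 in untreated depleted and 18.4 in treated depleted cells. AOX1, aldehyde oxidase, rose with Cisplatin by 1.64 ± 0.32 (adjusted p = 0.00044) at levels of 1.77 to 7.51 CPM. CYBB, the catalytic subunit of the phagocyte NADPH oxidase, fell by 1.85 ± 0.27 (adjusted p = 4.25e-05) at levels of 0.427 to 2.09 CPM.

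Of 10 genes for selenoproteins or for their synthesis, 3 rose with Cisplatin, 5 fell and 2 did not pass (median −0.17), where 66.8% of all genes passed. With depletion 2 rose, 1 fell and 7 did not pass (median 0.09), where 47.5% of all genes passed. EEFSEC, the elongation factor that brings selenocysteine to the ribosome at UGA codons such as those printed above, fell by 2.08 ± 0.15 with Cisplatin (adjusted p = 5.58e-08). It stood at 17.3 to 18.5 CPM in untreated and 5.41 to 5.87 CPM in treated control cells, and at 16.2 to 17.3 and 2.32 to 3.31 CPM in depleted cells, so treated and untreated libraries did not overlap. The fall was deeper in depleted cells, by 0.89 ± 0.17 on the log2 scale (adjusted p = 0.0165), a call lost without untreated depleted replicate 1 (adjusted p = 0.0538).

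Of 14 regulators of antioxidant genes, 8 rose with Cisplatin, 2 fell and 4 did not pass (median 0.36), where 66.8% of all genes passed. With depletion 8 rose, 3 fell and 3 did not pass (median 0.37), where 47.5% of all genes passed. MAFF, a small partner of NFE2L2 and BACH1, rose by 2.15 ± 0.18 with Cisplatin (adjusted p = 1.9e-07). The NF-κB subunits NFKB2 and RELB rose by 2.14 (adjusted p = 7.85e-10) and 1.97 (adjusted p = 6.13e-08). PPARGC1A, a coactivator of mitochondrial genes, fell by 2.08 ± 0.46 (adjusted p = 0.00112), with untreated control libraries spread over 10.6, 32.8 and 6.95 CPM. MAFG had a Cisplatin effect that differed between backgrounds, by 1.04 ± 0.18 (adjusted p = 0.0125). It was at 68.7 to 96.9 CPM in untreated and 76.6 to 79.8 in treated control cells, and at 73.5 to 89.5 CPM in untreated and 138 to 168 in treated depleted cells. Its span overlaps that of SIRT7 on the same strand, and the effect of this on its counts was not tested. In the lists outside the 10 genes, EEFSEC and MAFG were the 2 genes with a passed difference between backgrounds, where 4.25% of all genes passed.

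**Figure D3:**
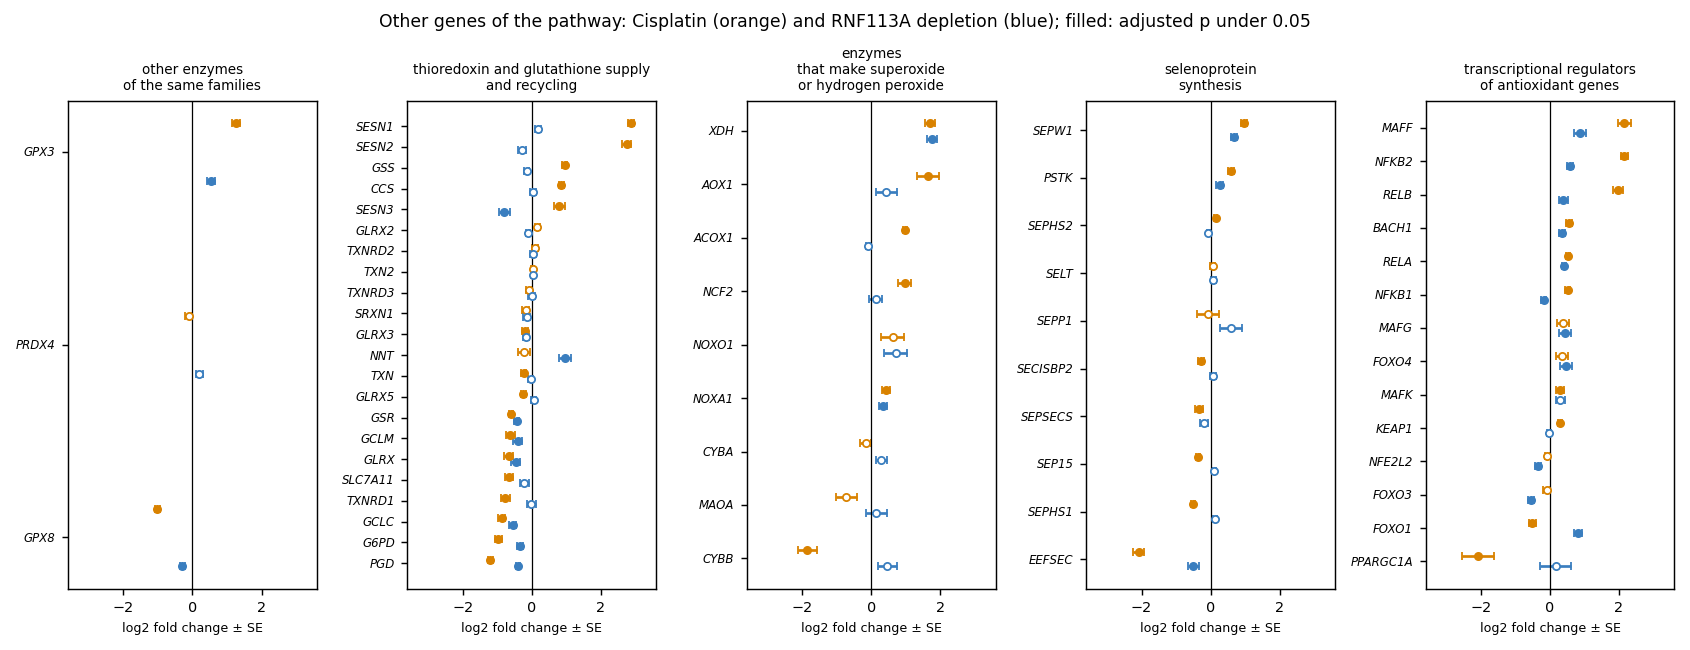
Log2 fold changes ± SE for Cisplatin over both backgrounds (orange) and RNF113A depletion over both drug levels (blue) in the tested genes of the 5 other lists; filled points have an adjusted p under 0.05. SESN1 and SESN2 lie near the right end at 2.87 and 2.75, EEFSEC and PPARGC1A at −2.08 near the left end, and XDH at 1.70 and 1.76 for both effects.

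Since RNF113A is a spliceosome subunit, reads inside introns of the 10 genes were compared with reads on their exons. Intronic reads are the genic minus the exonic reads, and the test has a term for each library, which removes changes of the gene's level. GPX1 had 0 intronic reads in every library because annotated exons cover its whole span, which leaves 9 genes. In Cisplatin-treated depleted cells against Cisplatin-treated control cells all 9 had more intronic relative to exonic reads, by 0.55 to 1.39 on the log2 scale, but so did 74.2% of the 12775 genes tested, and the median of the 9 genes, 0.72, was lower than the median of 0.96 over all genes with intronic reads. Of the 12775 genes 12473 had intronic reads, and 9474 of these were higher. The shares of all genes here and below also count the genes without intronic reads, none of which passed. In untreated cells SOD1, GPX2 and PRDX6 passed, all higher with depletion, against 24.3% of all genes.

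SOD1 had the largest change. In untreated control cells 2.39%, 2.11% and 1.93% of its genic reads were intronic, and 2.48%, 2.20% and 3.16% after Cisplatin. In depleted cells the shares were 3.5%, 3.88% and 3.22% without Cisplatin and 6.17%, 6.17% and 7.20% with it. Depleted libraries lay above control libraries at both drug levels without overlap. The intronic to exonic ratio was 1.68-fold higher with depletion in untreated cells (adjusted p = 0.0097) and 2.61-fold higher in treated cells (log2 1.39 ± 0.18). The call in untreated cells was lost without untreated depleted replicate 2 (adjusted p = 0.0691). Those of GPX2 and PRDX6 were lost without untreated control replicate 2 or 3 or any 1 untreated depleted library (adjusted p between 0.0501 and 0.145).

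CAT and PRDX6 had the highest shares in treated depleted cells, 8.92% ± 0.68 (SD, n = 3) and 8.05% ± 0.12. In treated control cells they were 4.23% ± 1.65 and 3.83% ± 1.41. The ratio was 2.28-fold higher with depletion in these treated cells for both genes (adjusted p = 0.000192 for CAT). PRDX3 had a mean share of 3.80% against 1.66%, a 2.39-fold higher ratio. PRDX1 had the smallest shares, 0.67% in untreated control and 1.23% in treated depleted cells, and its ratio was 1.64-fold higher with depletion after Cisplatin (adjusted p = 0.000444). SOD2 (0.65, adjusted p = 0.00993), PRDX5 (0.55, adjusted p = 0.0149) and GPX4 (0.60, adjusted p = 0.015) each lost the call without 1 library or another: SOD2 without treated control replicate 2 (0.0696), GPX4 without treated depleted replicate 1 (0.0524), and PRDX5 without treated control replicate 1 (0.11) or treated depleted replicate 2 (0.0682).

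Cisplatin also raised the intronic share of 6 of the 9 genes in depleted cells (SOD1, CAT, PRDX1, PRDX3, PRDX5 and PRDX6), against 58.6% of all genes. In control cells SOD2 was the single gene to pass and it was lower (−0.66 ± 0.22, adjusted p = 0.043), against 16.3% of all genes in either direction. That call was lost in 10 of 12 fits without 1 library, among them −0.38 (adjusted p = 0.109) without treated replicate 2. The exons of SOD2 in this test total 18100 bases, against 1775 for the RefSeq exons by which its level was divided. The 2 measures of SOD2 therefore cover different sequence. Treated control replicate 3 had the highest intronic share of its condition for 8 of the 9 genes, GPX4 being the exception, and over all genes the treated control libraries ranged from 1.82% to 4.41%, against 1.66% to 2.25% in untreated control, 3.03% to 3.97% in untreated depleted and 7.09% to 7.39% in treated depleted cells. The part of this library-wide shift in the values of the 9 genes was not tested.

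**Figure D4:**
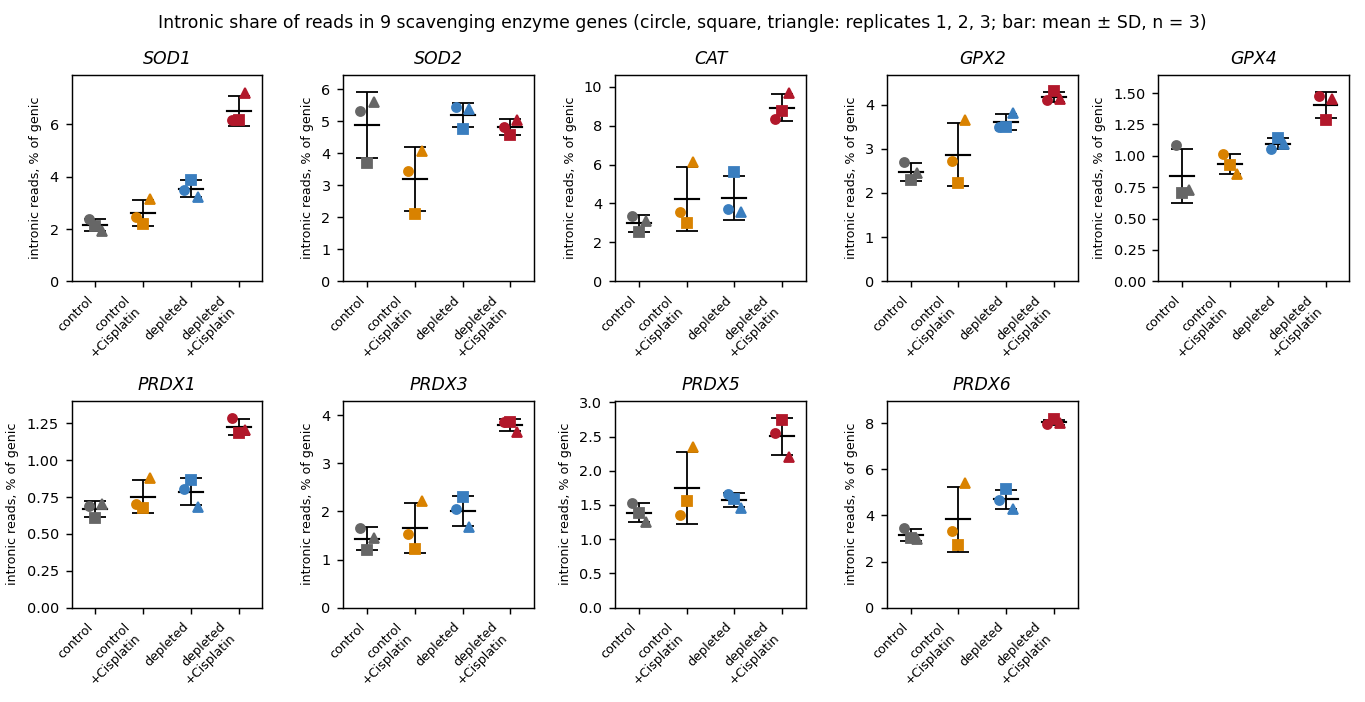
Share of genic reads that fall in introns, in percent, for the 9 genes with intronic sequence, by condition. Symbols are libraries (circle, square and triangle for replicates 1, 2 and 3) and bars give the mean ± SD (n = 3). For SOD1 the 3 treated depleted libraries lie between 6.17% and 7.20%, above all 9 others, while for SOD2 they lie within the range of the untreated control libraries.

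Single splice events were examined in the tables of the authors' rMATS analysis, whose read numbers for both splice forms were tested again with a term for each library. These tables held 217 tests of events in 9 of the 10 genes over the 4 comparisons, GPX1 having none, and 214 of them had at least 10 reads in every library. The same event can recur in several comparisons, which share libraries. An unadjusted p under 0.05 was found for 17, and the share of all tests at that threshold was not computed. An adjusted p under 0.05 was found for 2, against 1.37% of the tests of all genes. Neither of the 2 also had inclusion levels at least 0.2 apart, which was the rule for a call and was met by 0.128% of all tests.

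Both of the 2 were the same event in SOD2, listed as a retained intron at chr6:160100331-160103505 (GRCh37, minus strand, 3175 bases), just after the stop codon in the untranslated end of the mRNA. Its splice sites are shown because the event sets 2 ends of SOD2 mRNA apart. Each run is in the direction of transcription, with the first or last 2 bases of the intron in capitals.
SOD2 upstream site, chr6:160103486-160103515: gttatgctgaGTatgttaagctctttatga
SOD2 downstream site, chr6:160100321-160100350: ttactgtttctcactttcAGtcatacccta

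Annotated transcripts also end inside this intron, so the inclusion form mixes unspliced RNA with an mRNA that stops before the downstream site. The mean inclusion level was 0.768 ± 0.065 (SD, n = 3) in untreated control and 0.708 ± 0.017 in treated control cells, and 0.710 ± 0.025 in untreated and 0.558 ± 0.049 in treated depleted cells. It was thus lowest where the intronic share of most other members was highest. The ratio of inclusion to skipping reads fell by 0.95 ± 0.19 on the log2 scale with Cisplatin in depleted cells (adjusted p = 2.08e-05) and by 0.94 ± 0.28 with depletion in treated cells (adjusted p = 0.00739). The second of these lost its call without treated depleted library a (adjusted p = 0.0551) or c (adjusted p = 0.0941), where letters give the place in the tables, which do not name replicates.

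The reads of the 2 forms moved differently. Junction reads of the spliced form numbered 26, 42 and 45 in untreated control, 66, 98 and 72 in treated control, 53, 63 and 49 in untreated depleted and 109, 108 and 112 in treated depleted libraries. These raw counts were highest in treated depleted cells, whose libraries are the shallowest. Reads of the inclusion form ranged from 4718 to 6606 in untreated control, from 7061 to 10044 in treated control, from 5639 to 6430 in untreated depleted and from 5201 to 7427 in treated depleted libraries. The level is computed per length, with 3247 counting positions for the inclusion and 72 for the spliced form. Retained intron events as a class passed in 12.7% of 4116 tests for Cisplatin in depleted cells and in 21.9% of 4153 for depletion in treated cells.

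An alternative 5′ splice site of GPX4 had an unadjusted p of 0.0442 for depletion in untreated and of 0.027 in treated cells, and did not pass (adjusted p = 0.74 and 0.358). Its mean inclusion level was 0.927 in untreated control, 0.906 in treated control, 0.880 in untreated depleted and 0.844 in treated depleted cells. These are 2 of the 17 tests with an unadjusted p under 0.05. It is named here because its values were lowest in the condition where the level of GPX4 was highest, and it was chosen after its values were seen. A link between this event and the level of GPX4 was not tested.

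**Figure D5:**
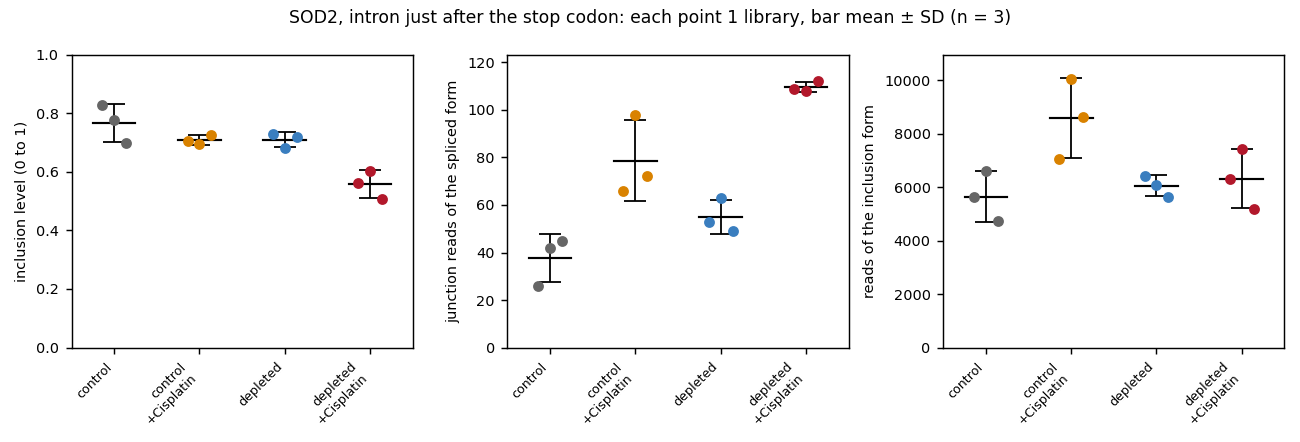
Inclusion level (0 to 1), junction reads of the spliced form and reads of the inclusion form of the SOD2 event after the stop codon, by condition; points are libraries and bars the mean ± SD (n = 3). The 3 treated depleted libraries have 108 to 112 spliced reads and inclusion levels of 0.507 to 0.604, below all 9 others.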

How the data were processed

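Strand-specific mRNA libraries were read from both ends by the authors and aligned to hg19, and the submitters' notes name STAR 2.5.2b, HTSeq and cutadapt. They deposited raw counts per gene from STAR, of which those on the strand of the gene were used, raw HTSeq counts on exons and whole spans of protein-coding genes, and rMATS tables with raw reads of both splice forms. Of all read pairs, 14.0% to 22.6% were not assigned to a gene. The p-values and inclusion differences in the rMATS tables are the authors' own and were not used.

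The counts were tested with edgeR 4.0.16 in R 4.3.3 (TMM, filterByExpr, quasi-likelihood, Benjamini-Hochberg). Effects over both backgrounds or drug levels came from the additive model, the others from the model with an interaction. Intronic against exonic reads, and inclusion against skipping reads, were tested with a term for each library. Genes with fewer genic than exonic reads in any library were left out (3.74%). A call required an adjusted p under 0.05 and a change of at least 2-fold, or inclusion levels at least 0.2 apart. The expression test, the intronic test for depletion and the splice test were first run on simulated data with known changes. For splicing only skipped exons for depletion in untreated cells were simulated. There 42 of 100 changes of 2-fold in the odds of inclusion passed. Other kinds of splice event, such as retained introns, were not simulated. The intronic simulation left out the shift of all introns between libraries.

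The members, lists and tests were chosen with earlier results of these data known. Named are the members, RNF113A, its list genes called in the terms for Cisplatin, depletion or their interaction (at most 3 in each direction), and member splice events with an adjusted p under 0.05. RHOA, the neighbour of GPX1, and a GPX4 splice event were added after their values were seen. Libraries of control cells that share a number departed from their group means together, with r between 0.38 and 0.67 over 15352 genes (0.36 and 0.39 between numbers 1 and 3, below −0.48 with number 2), so Cisplatin in control cells was also fitted with the number as a block. In depleted cells r was 0.02 to 0.17. Alternatives were other scalings, filters, unstranded counts, DESeq2 1.42.0, blocks and the omission of libraries. Sequences were read from GRCh37.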

Additional observations from a re-analysis of the deposited data

Results flagged for a closer look

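The test of whether the Cisplatin effect differed between depleted and control cells passed for 2 of the named genes. The 5 lists they come from had 3, 22, 9, 10 and 14 genes tested, and no other gene of these lists passed. Of all genes 4.25% passed, so the number is close to the background. For EEFSEC, the selenocysteine elongation factor, the difference was −0.89 ± 0.17 on the log2 scale. Its libraries stood at 5.76, 5.41 and 5.87 CPM in treated control and at 2.97, 3.31 and 2.32 CPM in treated depleted cells, against 16.2 to 18.5 CPM in the 6 untreated libraries. For MAFG, a small MAF protein that pairs with NFE2L2, the difference was 1.04 ± 0.18. It was higher in the 3 treated depleted libraries (146, 138 and 168 CPM) than in the 9 others (68.7 to 96.9 CPM), and it passed in all 12 fits without 1 library (adjusted p by edgeR's quasi-likelihood test between 0.00103 and 0.0397). EEFSEC passed in 11 of 12. The span of MAFG overlaps that of SIRT7 on the same strand, and the effect of this on its counts was not tested.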

How the results depend on the processing

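No change of a member that had passed reversed its sign under any alternative, but calls were lost. With DESeq2 size factors in edgeR these were SOD1 for Cisplatin over both backgrounds (adjusted p = 0.0559), SOD2 for depletion over both drug levels (0.0568, and 0.0507 with DESeq2) and GPX4 for depletion in untreated cells (0.0522). SOD1 for depletion over both drug levels was lost with library size alone (0.051) and with no low-count filter (0.0625), the latter also in untreated cells (0.052). Without both control libraries numbered 2, an alternative chosen after seeing the data, 6 members passed for depletion in untreated cells, 6 in treated cells and 1 (CAT) for the interaction, and the genes passed were 6469 for depletion in untreated cells and 2627 for the interaction. PPARGC1A then had a difference of 1.03 for depletion in treated cells, against −0.22 with all libraries, where it had not passed. For the interaction 1390 genes passed with DESeq2 and 2498 with a replicate block within control cells (also chosen after seeing the data), against 652. With that block 7 members and 9981 of 15352 genes passed for Cisplatin in control cells, and with the replicate number as a block in all cells 6 members and 8753 genes. The latter block also let SOD2 pass for depletion in treated cells (adjusted p = 0.0344, edgeR) and PRDX5 for depletion over both drug levels (0.0438), where SOD1 was lost (0.0509). With an inclusion difference of 0.1, or none, 1 SOD2 event was called for Cisplatin in depleted cells and 1 for depletion in treated cells. No paired analysis was possible for splice events because the tables carry no replicate numbers.

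With 1 library left out, the members passed numbered 6 to 7 for Cisplatin and 3 to 8 for depletion over both groups, 0 to 1 for the interaction, 4 to 5 and 5 to 6 for Cisplatin in control and depleted cells, and 0 to 3 and 1 to 4 for depletion in untreated and treated cells. The genes passed numbered, in the same order, 9823 to 10567, 6402 to 7925, 171 to 1547, 7572 to 8773, 8234 to 10083, 2682 to 4804 and 4998 to 7814. For intronic reads 0 to 2 members and 1297 to 4796 genes passed for Cisplatin in control cells, and 0 to 5 members and 368 to 5231 genes for depletion in untreated cells. The cause of the lost calls was not tested. Counting error is largest for the intronic reads of GPX4, of which untreated control libraries held 32 to 43.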

Other observations

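The genes whose log2 CPM followed GPX1 most closely over the 12 libraries, among 9778 genes averaging 10 CPM or more, were AK1, an adenylate kinase (Pearson r = 0.995), TUSC2 (0.995) and ABCB9 (0.995). For CAT they were NDFIP1 (0.988), PROS1, an anticoagulant plasma protein (0.988), and PDGFRL (0.978). These values describe likeness only, since the libraries share their conditions, control replicate 2 and the scaling.

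The letters TGACNNNGC, the core of the antioxidant response element that NFE2L2 binds with small MAF proteins, were searched on both strands of RefSeq promoters (GRCh38.p14, 250 bases before to 50 after the start). Of 35116 promoters 4687 held them, 13.3%. Of the 7 members with a promoter in that table GPX2 held them, 122 bases before its start.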
